A study of Mus musculus with 20 samples.

Results

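The matrix metalloproteinase genes Mmp2, Mmp3, Mmp7, Mmp10, Mmp13, Mmp14 and Mmp15 and the genes of their tissue inhibitors, Timp1, Timp2 and Timp3, were followed in colonoid cultures of WT and Tnfr2-/- mice. These 10 genes were picked by symbol from 35240 gene symbols in the transcript table, after repeated transcript lines were dropped and the transcripts of a symbol were summed. All 10 had a mean of at least 1 and were among the 13539 genes tested. Colonoids are epithelial structures grown from colonic crypts in Matrigel, a basement membrane gel, here under Intesticult medium. The cultures had been passaged 5 times and filtered through a nylon mesh before they were seeded, and RNA was taken on days 1, 2, 3, 5 and 7 post-passage (DPP). The WT mice were C57BL/6, and the Tnfr2-/- mice lacked TNFR2, the tumor necrosis factor receptor encoded by Tnfrsf1b, in the whole body, so that every cell type in the culture was mutant. There were 20 libraries, 1 for each of 2 mice per genotype on each of 5 days. Days 1 to 3 are called early and days 5 and 7 late.

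Matrix metalloproteinases (MMPs) are zinc-dependent endopeptidases that are made as inactive proenzymes and cut collagens, basement membrane proteins and many proteins of the cell surface. TIMPs bind their active sites and hold them in check. In the gut, stromelysin-1, encoded by Mmp3, and collagenases are known mainly as products of stromal cells in inflamed or wounded tissue. Matrilysin, encoded by Mmp7, is known mainly from epithelial cells.

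Of the 10 genes, 4 lie within 427 kb of chromosome 9 (GRCm38), among 10 genes of the MMP family. They are Mmp13 (chr9:7272514-7283331), Mmp3 (chr9:7445822-7455975), Mmp10 (chr9:7502352-7510240) and Mmp7 (chr9:7692090-7699585), all on the plus strand. Mmp2 (chr8:92827291-92853420) and Mmp15 (chr8:95352268-95375080) are on chromosome 8, Mmp14 (chr14:54431612-54445364) is on chromosome 14, and Timp1 (chrX:20870166-20874735), Timp2 (chr11:118301069-118355740, minus strand) and Timp3 (chr10:86300372-86349506) are each on a chromosome of their own. The promoters of the 4 genes on chromosome 9 are shown because among the 7 MMP genes followed, those had the largest late differences between genotypes. Each is the 250 bases before the RefSeq start (GRCm38.p6, plus strand), 5′ to 3′, with matches to TGANTCA, the AP-1 motif, in capitals. The windows are chr9:7272264-7272513 for Mmp13, chr9:7445572-7445821 for Mmp3, chr9:7502092-7502341 for Mmp10 and chr9:7691840-7692089 for Mmp7.
Mmp13: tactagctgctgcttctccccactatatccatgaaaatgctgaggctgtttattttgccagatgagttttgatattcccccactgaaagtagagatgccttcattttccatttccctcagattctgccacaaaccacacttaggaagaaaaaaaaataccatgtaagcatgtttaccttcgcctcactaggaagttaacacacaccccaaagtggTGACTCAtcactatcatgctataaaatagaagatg
Mmp3: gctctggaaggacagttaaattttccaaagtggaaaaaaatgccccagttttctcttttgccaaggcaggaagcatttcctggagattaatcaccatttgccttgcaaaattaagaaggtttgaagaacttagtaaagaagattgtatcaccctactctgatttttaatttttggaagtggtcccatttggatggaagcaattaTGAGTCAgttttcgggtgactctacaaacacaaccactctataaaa
Mmp10: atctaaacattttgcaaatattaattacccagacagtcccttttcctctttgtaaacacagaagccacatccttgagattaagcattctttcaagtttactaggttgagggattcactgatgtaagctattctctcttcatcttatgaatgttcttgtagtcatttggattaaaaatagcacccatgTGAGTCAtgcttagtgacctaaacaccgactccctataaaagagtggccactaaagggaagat
Mmp7: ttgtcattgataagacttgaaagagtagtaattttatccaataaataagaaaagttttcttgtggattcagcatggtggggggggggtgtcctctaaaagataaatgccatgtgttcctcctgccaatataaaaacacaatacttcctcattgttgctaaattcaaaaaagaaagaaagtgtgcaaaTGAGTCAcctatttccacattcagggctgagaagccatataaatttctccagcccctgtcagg
The first base of the AP-1 match lay at -35 in Mmp13, -46 in Mmp3 and -63 in both Mmp10 and Mmp7, counting back from -1 at the last base of the window. A TATA box (TATAAA) began at -16, -7 and -29 in Mmp13, Mmp3 and Mmp10, and at -123 and -26 in Mmp7. Both strands were searched, and the motifs did not overlap. Of the 9 genes matched in the RefSeq promoter table, these 4 held both motifs, while the windows of Mmp14, Mmp15, Timp1, Timp2 and Timp3 held neither. Mmp2 was not in that table. A further window of Mmp7, from a start downstream of the one shown, held neither motif. Among all 32851 promoter windows of this length, 6.75% held TGANTCA, 12.4% held TATAAA and 1.21% held both. Of 13 other family members in the table, 4 held the AP-1 motif, and 3 of those also held the TATA box (Mmp1a, Mmp1b and Mmp20). A match says only that these letters are in the window.

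Values are TPM, a transcript abundance per unit length, scaled between libraries and here called normalised TPM, so levels of different genes can be compared. The libraries summed to between 900655 and 1111080, and 13007 to 13469 genes per library reached 1. Read depth per library is unknown from these values, so no counting error is given. As a check of the labels, Tnfrsf1b had 15.3 ± 3.09 normalised TPM in WT and 5.80 ± 2.84 in Tnfr2-/- libraries (SD, n = 10 each). It was lower in the knockout over all days (log2 difference -1.35, limma adjusted p = 9.72e-05), but it was not at 0. At the late days it was 7.59 to 11.5 (mean 8.74) in the 4 Tnfr2-/- libraries and 13.6 to 21.9 (mean 15.9) in the 4 WT libraries (log2 difference -0.79, limma adjusted p = 0.0323). Within Tnfr2-/- cultures it was called higher late than early (1.02, 0.00191). All 8 epithelial markers were present in each of the 20 libraries, with Krt8 at 3463 to 6607. All 14 fibroblast markers were present in each library too, so the cultures were not purely epithelial. Of the 8 immune markers, Cd68 was at 7.12 to 42.5 and Csf1r reached 1 in 17 libraries, while Ptprc stayed at or below 0.753 and Adgre1 was at 0 in 19 libraries. Csf1r, which encodes a macrophage growth factor receptor, was called higher in Tnfr2-/- over all days (log2 difference 0.76, limma adjusted p = 0.0285) and not at the late days (0.53, 0.387). The endothelial marker Emcn was at 0 in all 20. In such bulk RNA, more cells of a type and more RNA per cell cannot be told apart.

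Mmp3 was the highest of the 10 genes (mean 2040 over the 20 libraries) and ranked 56 among all genes, followed by Mmp10 (1388), Mmp2 (522), Timp2 (344), Mmp14 (281), Mmp13 (249), Timp1 (148), Mmp15 (73.5), Mmp7 (48.7) and Timp3 (14.6). The order depended on genotype and day. In late Tnfr2-/- libraries the order was Mmp3, Mmp10, Mmp2, Mmp13, Mmp14, Timp2, Timp1, Mmp7, Mmp15 and Timp3, and each was above the next in all 4 libraries except Mmp2 and Mmp13, which changed places. In late WT libraries, Mmp10 was above Mmp2 and Mmp7 above Timp3 in all 4, while the other neighbours in the order were mixed.

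At the late days Mmp3, Mmp10 and Mmp13 were called higher in Tnfr2-/- than in WT libraries. The sum of 14 fibroblast markers was 4218 to 10328 in the same Tnfr2-/- libraries and 1502 to 5055 in WT, and with its log2 value as a covariate Mmp3 and Mmp13 were called and Mmp10 was not (limma adjusted p = 0.127). Mmp3 encodes stromelysin-1, which cuts proteoglycans, laminin and fibronectin and activates other proMMPs. In Tnfr2-/- cultures Mmp3 was 1782, 804, 1029, 2817 and 5308 on days 1, 2, 3, 5 and 7 in mouse 1, and 2869, 1720, 1885, 4454 and 6571 in mouse 2. In WT cultures it was 2143, 1058, 425, 340 and 1670 in mouse 1 and 1855, 1338, 662, 776 and 1281 in mouse 2. The genotypes were intermixed on days 1 and 2, and from day 3 both Tnfr2-/- libraries were above both WT libraries. At the late days Tnfr2-/- libraries averaged 4788 ± 1575 and WT libraries 1017 ± 581 (SD, n = 4 for each genotype), and the groups did not overlap. The log2 difference was 2.40 ± 0.31 (SE, limma adjusted p = 7.90e-04).

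Mmp10, which encodes stromelysin-2, a close relative of stromelysin-1, followed the same course. It was 1526, 695, 917, 1899 and 3335 over the 5 days in Tnfr2-/- mouse 1, and 1540, 835, 1218, 2587 and 3730 in mouse 2. In WT it was 1615, 512, 231, 393 and 1562 in mouse 1 and 1683, 1027, 441, 750 and 1254 in mouse 2. All cultures started near the same level on day 1 and fell to day 2, and the Tnfr2-/- cultures climbed earlier and further. The late means were 2888 ± 812 and 990 ± 520 without overlap (log2 difference 1.68 ± 0.25, limma adjusted p = 0.00218).

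Mmp13 encodes collagenase-3, the main interstitial collagenase of the adult mouse. The ratio of its highest to its lowest value was the widest of the 10 genes. In Tnfr2-/- cultures it was 346, 34.2, 60.0, 420 and 739 in mouse 1 and 295, 41.7, 102, 521 and 939 in mouse 2. In WT it was 320, 18.7, 8.04, 25.3 and 454 in mouse 1 and 438, 36.0, 10.3, 43.1 and 125 in mouse 2. The genotypes were furthest apart as a ratio on day 5, and by day 7 WT mouse 1 had reached a level above the lowest late Tnfr2-/- library, so the late groups overlapped. The late means were 655 ± 232 and 162 ± 199 (log2 difference 2.79 ± 0.34, limma adjusted p = 5.23e-04), the largest late difference among the 10 genes.

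Mmp7 encodes matrilysin, a small member of the family, which lacks the hemopexin domain that most others carry. It was 13.4, 11.1, 56.7, 159 and 133 in Tnfr2-/- mouse 1 and 18.1, 18.1, 45.3, 136 and 126 in mouse 2. In WT it was 13.5, 7.22, 20.3, 39.7 and 82.3 in mouse 1 and 12.2, 3.56, 7.73, 23.4 and 46.5 in mouse 2. In both Tnfr2-/- cultures day 7 was no higher than day 5, while in both WT cultures day 7 was higher. At the late days the means were 139 ± 14.5 and 47.9 ± 24.9 without overlap (log2 difference 1.64 ± 0.30, limma adjusted p = 0.00669). Mmp7 was also the only one of the 10 genes called at the early days (log2 difference 1.16 ± 0.24, limma adjusted p = 0.0337). That early call was lost in 13 of 20 fits that left out 1 library each, with an adjusted p of up to 0.107.

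Mmp14 and Mmp15 encode membrane-type MMPs, which act at the cell surface, and MT1-MMP, the product of Mmp14, activates the gelatinase encoded by Mmp2. Mmp14 was 290, 224, 273, 306 and 512 in Tnfr2-/- mouse 1 and 285, 307, 279, 451 and 576 in mouse 2, against 209, 161, 132, 104 and 238 in WT mouse 1 and 242, 256, 231, 225 and 321 in WT mouse 2. Both Tnfr2-/- libraries were above both WT libraries on days 1, 3, 5 and 7. The late log2 difference was 1.12 ± 0.25 (limma adjusted p = 0.0184), and it missed the threshold in 4 of 20 fits without 1 library, at up to 0.0807 (WT mouse 1 on day 5 or 7, or Tnfr2-/- mouse 2 on day 5 or 7). Mmp2 differed less. Its late values were 382 and 768 in Tnfr2-/- mouse 1 and 631 and 875 in mouse 2, against 202 and 296 in WT mouse 1 and 433 and 637 in WT mouse 2 (log2 difference 0.82 ± 0.29, limma adjusted p = 0.112). WT mouse 2 was above Tnfr2-/- mouse 1 on day 5. Mmp15 was near equal in the genotypes at the late days, with 98.7 ± 9.93 in Tnfr2-/- and 97.7 ± 14.1 in WT (log2 difference 0.02 ± 0.14, limma adjusted p = 0.953).

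Among the inhibitors, Timp1 was the only one called between genotypes. With the log2 fibroblast marker sum as a covariate its late difference was 0.47 (limma adjusted p = 0.434) and not called. TIMP-1 inhibits most soluble MMPs, and its gene is known to respond to cytokines. It was 136, 116, 116, 204 and 273 in Tnfr2-/- mouse 1 and 173, 133, 131, 234 and 233 in mouse 2. In WT it was 277, 103, 59.2, 55.4 and 55.4 in mouse 1 and 159, 163, 92.2, 119 and 135 in mouse 2. WT mouse 1 had the highest value of all on day 1 and the lowest from day 3 on. The late groups did not overlap (236 ± 28.2 against 91.0 ± 41.6), and the log2 difference was 1.47 ± 0.30 (limma adjusted p = 0.0119), which became 0.0626 without WT mouse 1 on day 5.

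Timp2, whose product both inhibits MMPs and takes part in proMMP-2 activation at the cell surface, showed no call between genotypes. Its late values were 272, 287, 345 and 420 in Tnfr2-/- libraries. In WT they were 238 and 118 in mouse 1 and 484 and 360 in mouse 2. The spread between the WT mice was thus wider than the gap between genotypes (late log2 difference 0.30 ± 0.32, limma adjusted p = 0.627). Timp3, whose product binds to the matrix and also inhibits ADAM17, the protease that sheds TNF and its receptors, rose with time in all cultures. It went from 3.70 and 5.52 on day 1 to 44.9 and 47.8 on day 7 in Tnfr2-/- cultures and from 3.85 and 4.01 to 34.0 and 37.1 in WT. The late genotype difference was 0.54 ± 0.35 on the log2 scale (limma adjusted p = 0.393).

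**Figure D1:**
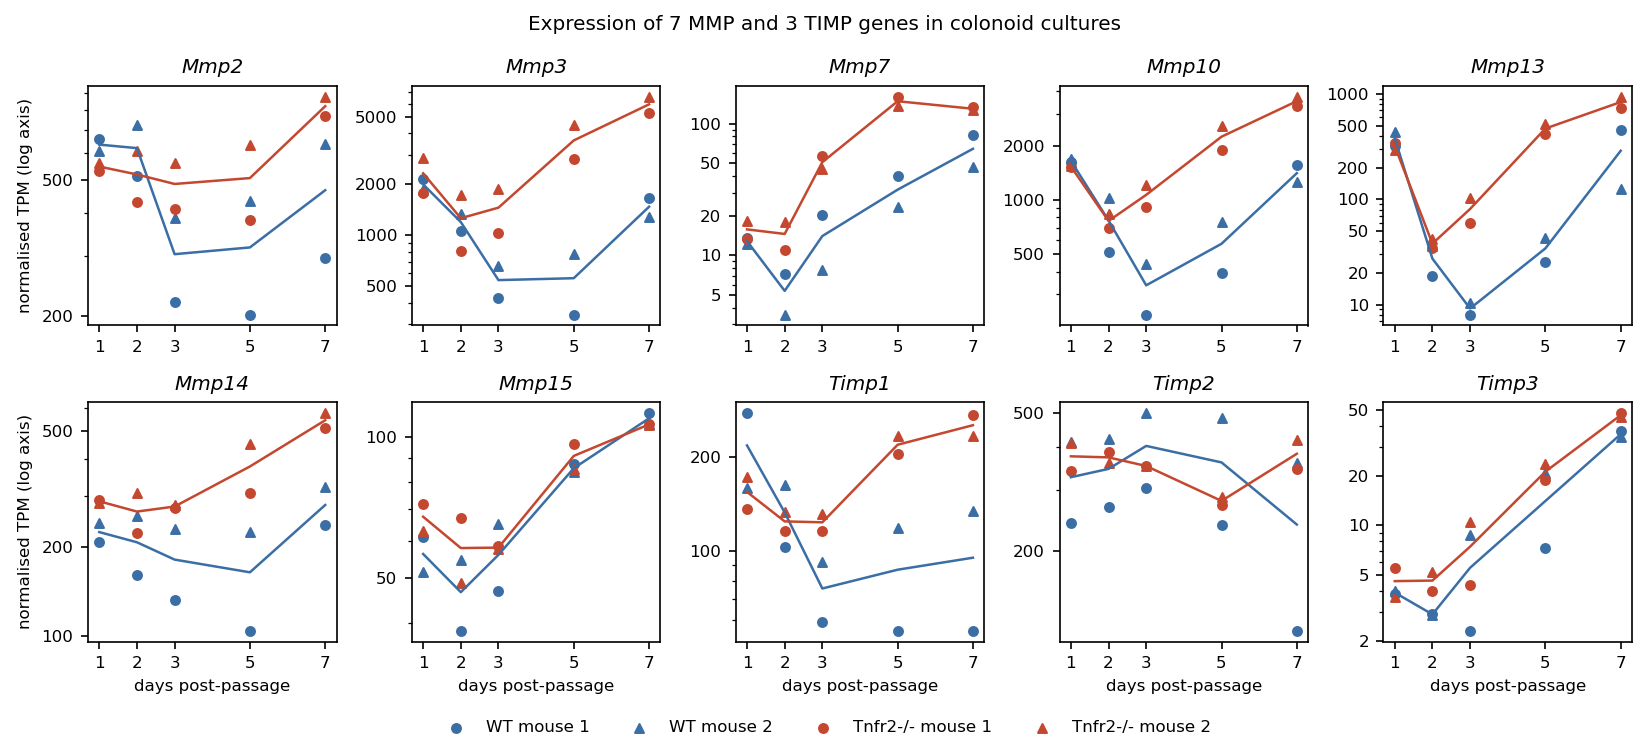
Normalised TPM (log axis, scale set per panel) of the 10 genes against days post-passage in WT (blue) and Tnfr2-/- (red) cultures, with circles for mouse 1, triangles for mouse 2 and lines through the mean of both mice. For Mmp3, Mmp10, Mmp13 and Timp1 both Tnfr2-/- points are above both WT points on days 3, 5 and 7, while Mmp15 and Timp3 climb in both genotypes.

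At the late days 6 of the 10 genes were called higher in Tnfr2-/- (Mmp3, Mmp7, Mmp10, Mmp13, Mmp14 and Timp1) and none lower, where 3.8% of all genes tested were called higher. The median log2 difference was 1.30 over the 10 genes and -0.05 over all genes. Over all 5 days, in a fit with day as a factor, 5 of 10 were called higher, against 4.51% of all genes. They were Mmp13 (log2 difference 1.77 ± 0.40), Mmp7 (1.36 ± 0.23), Mmp3 (1.27 ± 0.31), Mmp10 (1.01 ± 0.25) and Mmp14 (0.72 ± 0.16), with limma adjusted p from 0.00189 to 0.0209. At the early days 1 of 10 was called, against 0.768% of all genes. With the log2 fibroblast marker sum as a covariate, 3 were called at the late days and 2 over all days, as given below.

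Counted without a model, all 4 late Tnfr2-/- libraries were above all 4 WT libraries for Mmp3, Mmp7, Mmp10 and Timp1, that is 4 of 10, where 5.35% of all genes were so ordered. By day, both Tnfr2-/- libraries were above both WT libraries for 2 of the 10 genes on day 1 (19.3% of all genes) and on day 2 (17.6%), for 7 on day 3 (17.1% of all genes), for 6 on day 5 (19.9%) and for 8 on day 7 (20.5%). The 8 on day 7 were all but Mmp15 and Timp2. The libraries of a mouse on different days are repeated samples. A limma fit of 1 mean per mouse, 2 mice against 2, called none of the 10 genes in any of the genotype comparisons. That fit called 7 of all 13539 genes over all days, 3 at the early and 0 at the late days. Without all libraries of 1 Tnfr2-/- mouse, that arm kept 1 library a day. Most late calls were then lost, among the 10 genes and among all genes tested. With all mice kept, the 6 late calls held when the mouse was a correlated block, and over all days Mmp10 was no longer called (limma adjusted p = 0.0521).

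The estimated genotype differences were larger at the late than at the early days for 9 of the 10 genes. However, the limma test of that change called none of the 10, where 0.118% of all genes were called higher. The change in the log2 difference was 1.88 ± 0.40 for Mmp3 (adjusted p = 0.0973), 1.71 ± 0.44 for Mmp13 (0.165), 1.40 ± 0.38 for Timp1 (0.182) and 1.12 ± 0.33 for Mmp10 (0.206). Mmp3 passed when the mouse entered as a correlated block (limma adjusted p = 0.0429) or as a fixed effect (0.0111), and it did not pass on 1 mean per mouse (0.0921). For Mmp7 the change was 0.48 ± 0.38 (0.654). With the log2 fibroblast marker sum as a covariate it was 1.05 for Mmp3 (limma adjusted p = 0.392), 1.61 for Mmp13 (0.388), 0.45 for Timp1 (0.640) and 0.47 for Mmp10 (0.690). That fit called 0 of all genes tested.

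The cultures also changed with time, and the 10 genes did so in different ways. In Tnfr2-/- cultures 8 of 10 were called higher at the late than at the early days, where 10.4% of all genes were. They were Mmp13 (log2 difference 2.65 ± 0.31), Mmp7 (2.56 ± 0.27), Timp3 (2.37 ± 0.32), Mmp3 (1.56 ± 0.29), Mmp10 (1.38 ± 0.23), Timp1 (0.82 ± 0.27), Mmp14 (0.71 ± 0.23) and Mmp15 (0.69 ± 0.13), with limma adjusted p from 9.81e-05 to 0.0482. Timp1 and Mmp14 were near the threshold and each missed it in 10 of 20 fits without 1 library. With the log2 sum of 14 fibroblast markers as a covariate, Timp1 (0.27, limma adjusted p = 0.335) and Mmp14 (0.23, 0.263) were not called, and Timp2 (-0.72, 0.0358) and Mmp2 (-0.30, 0.0415) were called lower.

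In WT cultures 4 of 10 were called higher late, against 11.6% of all genes. Timp3 (2.21 ± 0.32), Mmp7 (2.08 ± 0.27) and Mmp15 (0.88 ± 0.13) passed with limma adjusted p of at most 7.16e-04. Mmp13 (0.95 ± 0.31, adjusted p = 0.0472) missed the threshold in 18 of 20 fits without 1 library. Mmp3 differed by -0.32 ± 0.29 and Timp1 by -0.58 ± 0.27 in WT (limma adjusted p = 0.469 and 0.149). Timp3, Mmp7, Mmp15 and, near the threshold in WT, Mmp13 were thus called with time in both genotypes, whereas Mmp3, Mmp10, Mmp14 and Timp1 were called in the Tnfr2-/- cultures and not in WT, and the difference between the genotypes in that change is the interaction given above. The early mean hid a U-shaped course, since Mmp3, Mmp10 and Mmp13 were high on day 1 in every culture and at their lowest on day 2 in the Tnfr2-/- and on day 3 or 5 in the WT cultures.

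**Figure D2:**
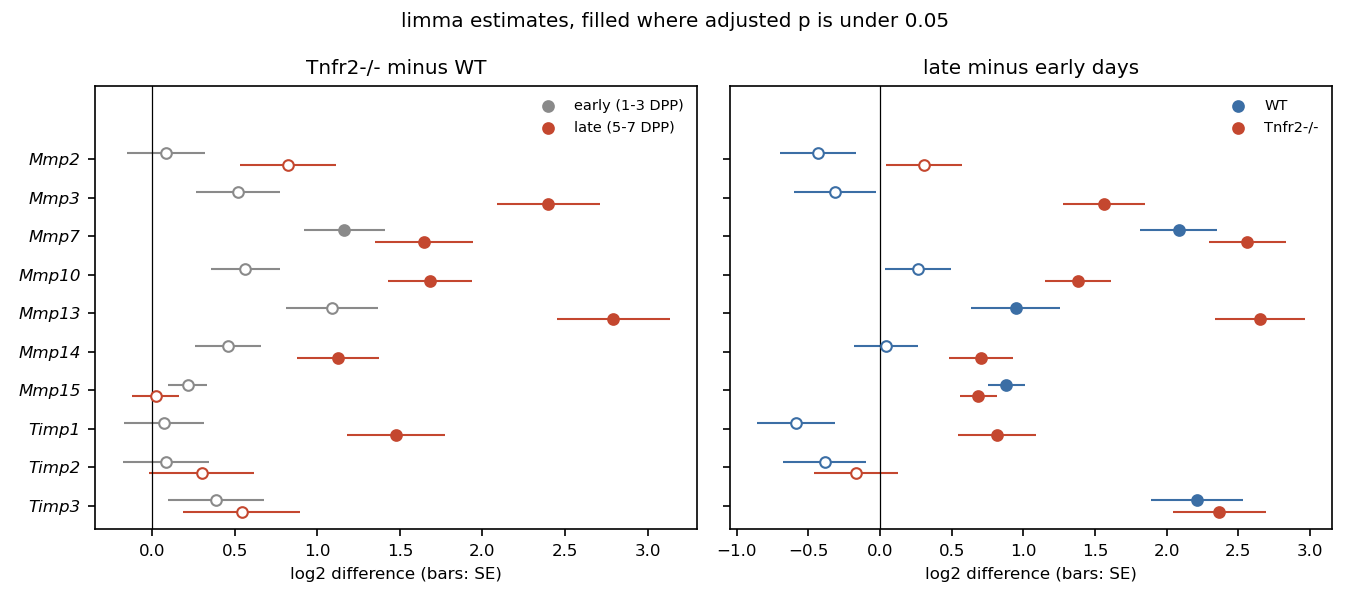
Log2 differences of the 10 genes with their SE (bars) from limma, on the left Tnfr2-/- minus WT at early (grey) and late (red) days and on the right late minus early days in WT (blue) and Tnfr2-/- (red). Filled points have an adjusted p under 0.05; the late genotype differences of Mmp13 (2.79) and Mmp3 (2.40) are the furthest from 0 on the left.

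The summed level of the 7 MMP genes was 6080 to 12923 in late Tnfr2-/- libraries and 1191 to 4415 in late WT libraries, without overlap. Per 1000 units of the summed fibroblast markers it was 1150 to 1480 and 562 to 1880, so that the groups overlapped and WT mouse 1 on day 7 lay above every Tnfr2-/- library. The sum of the 3 TIMP genes was 494 to 698 and 211 to 623 in the same groups, which overlapped. Mmp3, Mmp10 and Mmp13 together made 5136 to 11240.5 of the MMP sum in late Tnfr2-/- libraries. The ratio of the MMP to the TIMP sum was 12.3 to 18.5 in late Tnfr2-/- libraries. In late WT libraries it was 3.97 on day 5 and 20.9 on day 7 in mouse 1, and 3.74 and 7.14 in mouse 2. The high value on day 7 in WT mouse 1 went with the lowest TIMP sum of all libraries, 211, so the ratio did not separate the genotypes.

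Some of the fibroblast markers also differed. The sum of 14 markers was 4218 to 10328 in late Tnfr2-/- and 1502 to 5055 in late WT libraries, and 3455 to 5233 and 2457 to 5076 in the early libraries, and the late groups overlapped. Of the 14 markers, Dcn (log2 difference 2.74) and Vim (1.69) were called higher in late Tnfr2-/- libraries, where 3.8% of all genes were, with a median over the markers of 0.70. The other 12 were not called, from Thy1 (1.35, limma adjusted p = 0.179) down to Pdgfra (0.37, 0.504) and Dpt (-0.21, 0.834). None of the 8 epithelial markers was called late, with Epcam at 0.50 (limma adjusted p = 0.0503) and Vil1, lower in every Tnfr2-/- library, at -0.69 (0.112). Over all days Epcam (0.36, limma adjusted p = 0.0335) and Cdh1 (0.25, 0.0221) were called higher. WT mouse 1 had the lowest fibroblast sums on days 3, 5 and 7 (2457, 1502 and 2350). The macrophage-associated Cd68 was higher late in Tnfr2-/- (log2 difference 1.35, limma adjusted p = 0.00640). The late immune marker sum, 25.6 to 49.4 against 11.2 to 21.0, was mostly Cd68 (means 32.2 of 38.9 in Tnfr2-/- and 12.0 of 16.3 in WT). Apart from Cd68 and Csf1r, every immune marker had late means under 1 in both genotypes. The part of the immune markers in the MMP differences was not tested. The values were also set per 1000 units of the fibroblast marker sum.

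On that scale late Mmp3 was 562 to 742 (median 652) in Tnfr2-/- and 187 to 711 (median 240) in WT, and late Mmp13 was 78.3 to 99.5 (median 88.8) and 10.4 to 193 (median 20.7). The medians were still apart, but in both genes the highest WT library, mouse 1 on day 7, lay among or above the Tnfr2-/- libraries. Late Mmp10 was 353 to 450 (median 396) in Tnfr2-/- and 181 to 665 (median 255) in WT, so its highest WT library was above every Tnfr2-/- library. Late Mmp7 had 18.4 (range 12.2 to 37.8) and 17.8 (range 5.63 to 35.0), so the difference between genotypes was not seen in this ratio. The divisor had late means of 7499 in Tnfr2-/- and 3264 in WT, and the covariate fit below kept a difference for Mmp7. Late Mmp14 had medians of 64.2 and 66.3, late Timp1 33.9 and 27.6, and late Mmp2 87.6 and 126. The medians were lower in Tnfr2-/- than in WT for Timp2 (44.3 and 93.9), Mmp15 (12.8 and 34.5) and Timp3 (4.40 and 5.87), with overlapping ranges. With the log2 marker sum as a covariate, an alternative added after the data were seen, 3 of the 6 late calls held, namely Mmp7 (log2 difference 2.44, limma adjusted p = 0.00338), Mmp13 (2.70, 0.0222) and Mmp3 (1.52, 0.0471). Mmp10 (0.99, 0.127), Timp1 (0.47, 0.434) and Mmp14 (0.26, 0.596) did not pass in that fit. Among all 13539 genes the calls also fell with the covariate, from 873 to 202 at the late days and from 1029 to 610 over all days. Over all days Mmp7 (1.46, limma adjusted p = 0.00410) and Mmp14 (0.40, 0.0308, from 0.72 without the covariate) were called, while Mmp13 (1.42, limma adjusted p = 0.0832), Mmp3 (0.71, 0.108) and Mmp10 (0.61, 0.142) did not. Dcn (late means 1945 in Tnfr2-/- and 309 in WT) and Vim (1060 and 323), which themselves differed by genotype, are a large part of the sum.

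**Figure D3:**
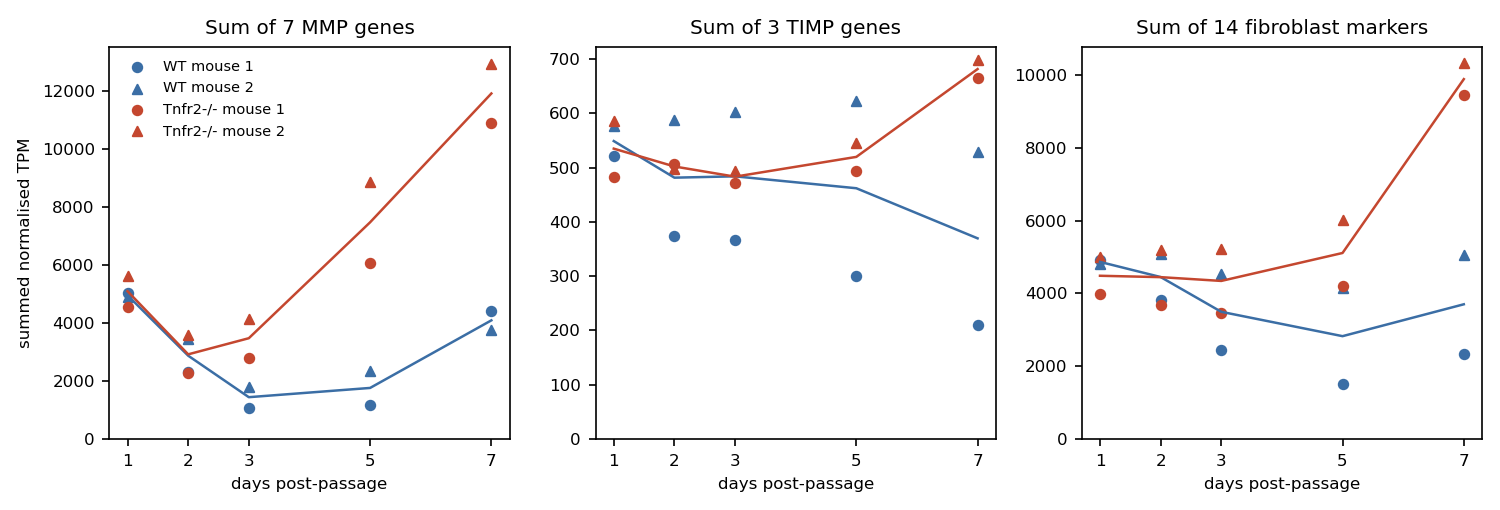
Summed normalised TPM of the 7 MMP genes, the 3 TIMP genes and the 14 fibroblast markers in each library against days post-passage (blue WT, red Tnfr2-/-, circles mouse 1, triangles mouse 2, lines through the mean of both mice). The MMP sum reaches 10903 and 12923 on day 7 in the Tnfr2-/- cultures, and the fibroblast marker sum also has its highest values there.

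Across the 20 libraries some of the 10 genes varied together. The closest pairs were Mmp10 with Mmp13 (Pearson r = 0.953) and Mmp3 with Mmp10 (0.945), all of the chromosome 9 cluster, and Mmp3 was also close to Mmp14 (0.884). Mmp7, of the same cluster, was closer to Timp3 (0.784) and Mmp15 (0.730) than to Mmp3 (0.513). Mmp2 was closest to Timp1 (0.847) and had 0.007 with Mmp7. Timp2 had its highest value with Mmp2 (0.416). These are descriptions on log2(normalised TPM + 1), and the libraries share genotype, day, mouse and cell mixture.

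Outside the 10 genes, the 3 genes of most similar pattern were Ptges, Tnc and Grem1 for Mmp3 (r = 0.965, 0.951 and 0.949), of which Tnc encodes the matrix protein tenascin C and Grem1 a BMP antagonist. For Mmp10 they were Pxdn, Rgs16 and Fam167a (0.961, 0.956 and 0.955), and for Mmp13 Serpine2, Akr1b8 and B4galt1 (0.950, 0.942 and 0.930). For Mmp7 they were Camk2n1, Vegfa and Elf3 (0.931, 0.929 and 0.926), of which Elf3 encodes an epithelial transcription factor. Mmp14 was closest to Prrx1, P4ha1 and Col5a2 (0.954, 0.936 and 0.936), which encode a mesenchymal transcription factor, a collagen-modifying enzyme and a fibrillar collagen chain. Mmp2 was closest to Colec12, Dkk3 and Gpc1 (0.929, 0.924 and 0.922) and Mmp15 to Mycn, Jun and Nfatc2 (0.925, 0.924 and 0.922). For the inhibitors the genes were Has2, Apbb1ip and Cald1 for Timp1 (0.892, 0.886 and 0.885), Arhgap10, Trim35 and Ptpn13 for Timp2 (0.899, 0.867 and 0.858), and Myl12b, Rhob and Fam210b for Timp3 (0.939, 0.934 and 0.934).

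**Figure D4:**
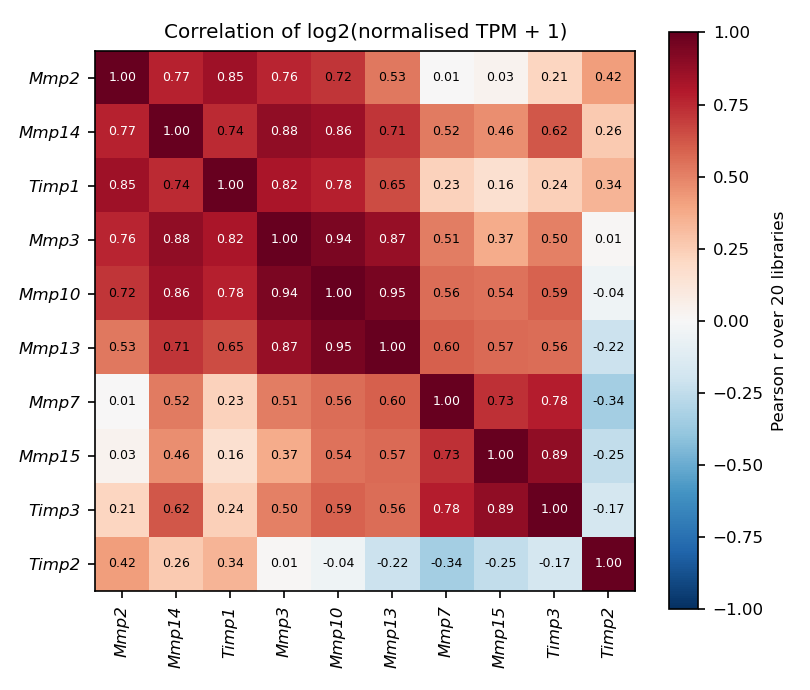
Pearson correlation of log2(normalised TPM + 1) between the 10 genes over the 20 libraries, coloured from -1 (blue) to 1 (red) with the value in each cell. The 3 pairs among Mmp3, Mmp10 and Mmp13 have values of 0.872 to 0.953, and Timp2 stands apart with 0.416 as its highest.

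The gene sums rested on 1 transcript each for Mmp3, Mmp7, Mmp10 and Mmp13. For Mmp14, the full coding transcript (2596 bases) held 66.3% of the sum and a retained-intron transcript (779 bases) 32.5%. For Timp2, the longer coding transcript (3709 bases) held 44.0% and a shorter coding transcript (718 bases) 56.0%. How pseudoalignment divided reads between such overlapping transcripts cannot be checked from these values. The main coding transcript held 78.3% of the sum for Mmp2, 94.2% for Timp3, 96.8% for Timp1 and 97.5% for Mmp15.

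Genes of the wider proteolysis system were also called higher at the late days. Of 11 other family members tested, 5 were called higher in late Tnfr2-/- libraries, where 3.8% of all genes were, and none lower. They were Mmp9 (log2 difference 2.11), a gelatinase, Mmp12 (2.04), the macrophage elastase, the interstitial collagenase genes Mmp1b (1.68) and Mmp1a (1.56), and Mmp28 (0.76). Mmp1a and Mmp1b are close paralogs, so reads between them are uncertain. Mmp12 and Mmp1b overlap on opposite strands, and whether strand was used in the quantification is unknown from these values. With time, 3 of these 11 were called lower in late WT cultures, where 8.52% of all genes were, namely Mmp12 (-1.04), Mmp1a (-1.02) and Mmp8 (-0.70), with a list median of -0.54. In late Tnfr2-/- cultures 2 of the 11 were called higher, where 10.4% of all genes were, namely Mmp9 (1.73) and Mmp28 (0.87), and none lower, with a list median of 0.54. The limma test of the difference in that change between genotypes called none of the 11, where 0.118% of all genes were called higher.

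The same share, 3.8% of all genes, is the background for the lists that follow. Of 17 ADAM and ADAMTS genes, 4 were called higher in late Tnfr2-/- libraries, namely the aggrecanase genes Adamts4 (log2 difference 1.39) and Adamts1 (1.22), Adam19 (1.06) and the sheddase gene Adam10 (0.39). The plasminogen system, whose product plasmin can activate proMMPs, included among its called genes the inhibitor gene Serpine2 (1.58), the urokinase gene Plau (1.14) and Anxa2 (0.52). Of 9 activators, receptors and further inhibitors, 3 were called, namely Tfpi2 (2.18), a serine protease inhibitor, Lrp1 (1.59), an endocytic receptor that clears MMPs, and the proprotein convertase gene Pcsk5 (1.34). Of 13 genes for matrix and adhesion substrates, 2 were called, namely the basement membrane genes Hspg2 (1.46), for perlecan, and Nid1 (1.43), for nidogen-1. No gene of these 4 lists was called lower at the late days. The list medians of the late log2 difference lay between 0.45 and 0.94 for the 5 lists, below the 1.30 of the 10 genes, and -0.05 for all genes.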

How the data were processed

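RNA of colonoid cultures was measured in 20 libraries of 2 mice per genotype on 5 days. Per the labels, total RNA was made into stranded mRNA libraries and sequenced as single-end reads. The submitters' processing notes name CASAVA, kallisto, sleuth and mm10. What the authors deposited is a signal for each transcript, namely TPM scaled by size factors between libraries, a scaling read from the column sums, which differ. Their columns of test statistics, p-values, q-values, means and variance terms were not used here. The table held 113974 lines, of which 781 repeats were dropped, and 199 of 113193 transcripts had no symbol (at most 0.0989% of a library). Values were summed per symbol, log2(value + 1) was taken, and the 13539 genes with a mean of at least 1 entered limma (version 3.58.1, under R 4.3.3, mean-variance trend on). Fold changes of low genes are understated on that scale. Benjamini-Hochberg adjustment ran over all genes tested, and an adjusted p under 0.05 was called. The effect of genotype over all days was fitted with day as a factor, and the remaining contrasts used a single model that gave each genotype and day its own mean. Only the late genotype contrast was tested on simulated data. The simulated noise was independent between libraries, without a mouse effect, so repeated sampling of a mouse was not covered.

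The replicate number was read from the labels as the mouse within a genotype, so the 5 libraries of a mouse are repeated samples, and p-values of genotype effects that treat them as separate can be too small. The difference between the mice of a genotype correlated across genes between days at 0.0997 to 0.307 in WT and -0.0511 to 0.0800 in Tnfr2-/-. Fits with the mouse as a block, on mouse means, with other pseudocounts, filters and centring, and without each library or mouse were made as alternatives. The 10 genes, the gene lists and the tests were chosen with earlier results of these data known. Named by rule were all 10 genes and the 3 genes of highest correlation with each, and list genes called in a comparison could be named. Lists are otherwise given as counts, and markers of cell types were named to describe the cultures. Promoters came from RefSeq (GRCm38.p6) and coordinates from GENCODE M21 (GRCm38). A result of the plasminogen list is not reported here.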

Additional observations from a re-analysis of the deposited data

Results flagged for a closer look

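In 40 groups of 4 late or 6 early libraries, 3 had a library far from the others. The rule flags about 1 in 20 groups drawn from 1 normal distribution, whereas these groups mix days. Timp1 was 173 in Tnfr2-/- mouse 2 on day 1, against 116 to 136 in the other 5 early Tnfr2-/- libraries. Timp3 was 8.78 in WT mouse 2 on day 3, against 2.31 to 4.01 in the other early WT libraries. Timp3 was 10.5 in Tnfr2-/- mouse 2 on day 3, against 3.70 to 5.52 in the other early Tnfr2-/- libraries. Both Timp3 values came from day 3, the last of the early days.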

How the results depend on the processing

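The counts of called genes among the 10 were the same under pseudocounts of 0.5 and 5, a mean of at least 5 and median centring for the 4 comparisons that involve genotype, and without a filter the early count was 0. The late against early count in WT was 3 instead of 4 under a pseudocount of 5, no filter, median centring, mouse means and the fibroblast marker covariate. In Tnfr2-/- it was 6 instead of 8 without a filter and 7 under median centring and mouse means. On 1 mean per mouse (replicate block), the counts fell from 5, 6 and 1 to 0 over all days, at the late and at the early days. Of all genes tested, 7, 0 and 3 were called there. With the mouse as a correlated or fixed block, 1 gene (Mmp3) was called for the change of the genotype effect, where the fit without a block called none. Apart from this and Mmp10 over all days, the correlated block changed no other call among the 10 genes. With the fixed block, Timp2 was also called lower late in WT (limma adjusted p = 0.0422). With the log2 fibroblast marker sum as a covariate, 2 genes were called over all days and 3 at the late days. The calls among all genes fell there from 1029 to 610 and from 873 to 202. For late against early days in Tnfr2-/-, Mmp2 became -0.30 (limma adjusted p = 0.0415) from 0.31, Timp2 was gained, and Timp1 and Mmp14 were lost. Without 1 library or 1 mouse, the counts ranged from 0 to 7 over all days, 0 to 8 at the late days, 0 to 5 at the early days, 0 to 2 for the change, 3 to 6 in WT and 0 to 8 in Tnfr2-/-. Without any 1 library the count over all days stayed at 5 and the late count lay between 4 and 7. The counts of 0 over all days, at the late days and in Tnfr2-/- came without 1 Tnfr2-/- mouse, where that arm kept 1 library a day and was assumed to vary like WT. Without 1 mouse, the counts over all days and at the late days moved the same way among the 10 genes and among all genes tested. Both were lower without WT mouse 1 or either Tnfr2-/- mouse, and higher without WT mouse 2. Of the alternative values of single genes, 1791 kept the call or its absence, 132 lost the call, 26 gained it and 1 reversed. The cause of these shifts was not tested. With 2 mice per genotype and unknown read depth, differences in genes of few units such as Timp3 rest on little data.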
